A study of Homo sapiens with 18 samples.

Results

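FOXA1 binding was compared between T47D and MDA-MB-453, a pair of established breast cancer cell lines, from chromatin immunoprecipitation followed by sequencing (ChIP-seq). A site of a line was a merged region that held a FOXA1 peak of both of its replicates. There were 112670 sites in T47D and 135315 in MDA-MB-453, which merged into 174125 regions of the 196570 that the FOXA1 libraries of the whole series gave. A site was called shared when it overlapped a site of the other line by at least 1 bp, and specific when it met no peak of either replicate of the other line. Sites that met a peak of a single replicate of the other line were kept apart as partial.

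Each line had 2 replicates, which the labels call biological, and each replicate had its own peak list. T47D cells express the estrogen receptor, while MDA-MB-453 cells lack it. Per the labels, both were grown untreated under the supplier's conditions, and the FOXA1 antibody was from Diagenode. The labels do not say whether replicates came from separate cultures, so each p-value measures only the spread between these libraries. With 2 libraries against 2, exact permutation of the line labels cannot give p below 0.333, and the exact sign-flip test over 4 libraries cannot give p below 0.125, so no test here could pass 0.05. The lists hold no read counts, so the depth behind a peak is unknown.

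FOXA1 is a forkhead transcription factor that binds nucleosomal DNA and opens chromatin for other factors, and it is therefore called a pioneer factor. In luminal breast cells it is known to bind with steroid receptors such as the estrogen receptor and with GATA3, mostly at enhancers away from gene starts. TLE3 is a Groucho family corepressor that has no DNA-binding domain and is recruited by partner factors, FOXA1 among them.

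Sequence could be shown where a specific site covered a promoter held in the RefSeq promoter table (GRCh38.p14). The promoters under the highest ranked specific sites are printed, 3 for each line, as the 250 bases before the gene start, 5′ to 3′ on the gene's strand. Capitals mark a match to the forkhead words TGTTTAC or TGTTTGC on either strand. SERPINA6 encodes the corticosteroid-binding globulin, and its promoter lay at chr14:94323337-94323586 on the minus strand. ZSCAN18, a zinc finger gene, had its promoter at chr19:58098232-58098481 on the minus strand, and LINC02130, a long non-coding RNA gene, at chr16:14370267-14370516 on the minus strand. These 3 promoters were under T47D-specific sites.
SERPINA6: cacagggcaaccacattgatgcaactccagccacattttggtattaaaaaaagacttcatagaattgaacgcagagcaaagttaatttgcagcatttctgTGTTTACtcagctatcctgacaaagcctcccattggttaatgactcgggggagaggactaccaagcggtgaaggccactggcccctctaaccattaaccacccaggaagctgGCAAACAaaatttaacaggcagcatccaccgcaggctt
ZSCAN18: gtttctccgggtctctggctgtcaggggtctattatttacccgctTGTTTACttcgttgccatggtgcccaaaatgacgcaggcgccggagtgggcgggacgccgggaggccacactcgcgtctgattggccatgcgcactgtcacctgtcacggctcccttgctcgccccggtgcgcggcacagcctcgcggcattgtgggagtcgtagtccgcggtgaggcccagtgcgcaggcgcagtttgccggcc
LINC02130: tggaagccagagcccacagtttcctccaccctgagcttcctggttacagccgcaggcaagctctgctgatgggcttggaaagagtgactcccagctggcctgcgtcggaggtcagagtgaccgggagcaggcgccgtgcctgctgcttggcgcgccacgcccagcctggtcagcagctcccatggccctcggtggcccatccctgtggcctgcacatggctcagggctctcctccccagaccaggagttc
The 3 promoters printed for MDA-MB-453-specific sites all belonged to long non-coding RNA genes. LOC124901599 had its promoter at chr7:21816471-21816720, LOC105372190 at chr18:73660446-73660695 and LOC105376233 at chr9:115262544-115262793, all on the minus strand.
LOC124901599: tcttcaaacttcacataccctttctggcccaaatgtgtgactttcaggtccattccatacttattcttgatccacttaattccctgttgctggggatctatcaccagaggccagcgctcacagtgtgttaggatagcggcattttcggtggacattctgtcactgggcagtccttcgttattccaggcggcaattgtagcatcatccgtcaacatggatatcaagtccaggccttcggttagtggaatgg
LOC105372190: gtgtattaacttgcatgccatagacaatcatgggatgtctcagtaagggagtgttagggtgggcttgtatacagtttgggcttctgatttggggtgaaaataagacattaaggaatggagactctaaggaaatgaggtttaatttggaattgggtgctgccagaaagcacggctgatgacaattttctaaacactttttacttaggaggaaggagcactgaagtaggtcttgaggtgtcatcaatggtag
LOC105376233: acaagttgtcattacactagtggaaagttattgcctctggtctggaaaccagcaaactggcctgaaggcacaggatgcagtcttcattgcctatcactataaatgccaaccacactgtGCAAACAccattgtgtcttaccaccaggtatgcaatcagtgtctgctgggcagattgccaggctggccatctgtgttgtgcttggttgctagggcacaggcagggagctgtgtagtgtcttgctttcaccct

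The SERPINA6 promoter held 2 forkhead matches, which began 150 and 38 bases before the gene start. The site over it spanned chr14:94322176-94323965 and ranked at percentiles 98.6 and 99.1 by score in the T47D lists. ZSCAN18 had 1 match, LINC02130 none, and of the MDA-MB-453 examples LOC105376233 alone had 1.

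Forkhead words were more frequent in promoters under T47D-specific sites than in those under MDA-MB-453-specific sites. Of 34961 promoters of 300 bases (250 before to 50 after the start), 7.16% held TGTTTAC or TGTTTGC on either strand. The share was 15.6% of the 654 promoters under T47D-specific sites (exact 95% interval 12.9 to 18.6) and 6.80% of the 1044 under MDA-MB-453-specific sites (5.35 to 8.50). It was 10.3% of the 7139 promoters under shared sites (9.61 to 11.0) and 6.22% of the 24145 under no site of either line. Median GC content moved with this order in part, at 53.8% for T47D-specific, 63.0% for MDA-MB-453-specific and 62.7% for shared promoters, and its part in the difference was not tested. The difference was not particular to forkhead words. Estrogen and androgen half-site words were in 15.9% and 16.8% of promoters under T47D-specific sites. Under MDA-MB-453-specific sites they were in 9.29% and 10.4%, and in 13.8% and 14.8% of all promoters. Of promoters under no site of either line, 15.1% and 16.6% held them, near the T47D-specific shares. Forkhead words were in 6.22% of those promoters, below the 15.6% of T47D-specific ones. Promoters are not replicates, and the intervals cover counting error only.

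T47D lists held 147283 and 149015 peaks, and MDA-MB-453 lists held 188029 and 153024. Both MDA-MB-453 lists were longer than both T47D lists, but most of the gap came from the first replicate (exact permutation p = 0.333, two-sided, the smallest this design allows). Within T47D, 77.4% and 76.8% of peaks of a replicate overlapped a peak of the other, and within MDA-MB-453 72.7% and 90.2%.

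Most T47D sites were shared, and a smaller part of the MDA-MB-453 sites. In T47D 72993 sites (64.8%) were shared, 26915 (23.9%) specific and 12762 (11.3%) partial. In MDA-MB-453 72495 (53.6%) were shared, 44692 (33.0%) specific and 18128 (13.4%) partial. With every list reduced to its 147283 highest scored peaks, 28.1% of T47D sites and 30.5% of MDA-MB-453 sites were specific. In the 20000 highest scored peaks these shares were 40.0% and 41.0%. With reduced lists, specific means no peak among those kept of the other line. A weaker peak of that line may lie there.

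Per library, 29.8% and 32.8% of T47D peaks met no MDA-MB-453 peak, and 41.3% and 36.7% of MDA-MB-453 peaks met no T47D peak. The groups did not overlap, with a difference of -7.68 percentage points (T47D minus MDA-MB-453, exact permutation p = 0.333). This difference did not hold at equal list length, where the T47D libraries had 34.7% and 37.4% and the MDA-MB-453 libraries 34.8% and 35.7%. The difference was then 0.797 points, the groups overlapped, and exact permutation gave p = 1.00. Without MDA-MB-453 replicate 1 it was 4.64 points. T47D peaks then had a single list to meet, which raises their share by construction, so this value cannot show what the order rested on.

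High-scored peaks were largely common to both lines. In the lowest score decile 52.4% and 55.9% of T47D peaks and 69.0% and 62.6% of MDA-MB-453 peaks met no peak of the other line. In the highest decile these shares were 4.92%, 4.82%, 6.93% and 5.50%. The share fell from each decile to the next in all 4 libraries.

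**Figure D1:**
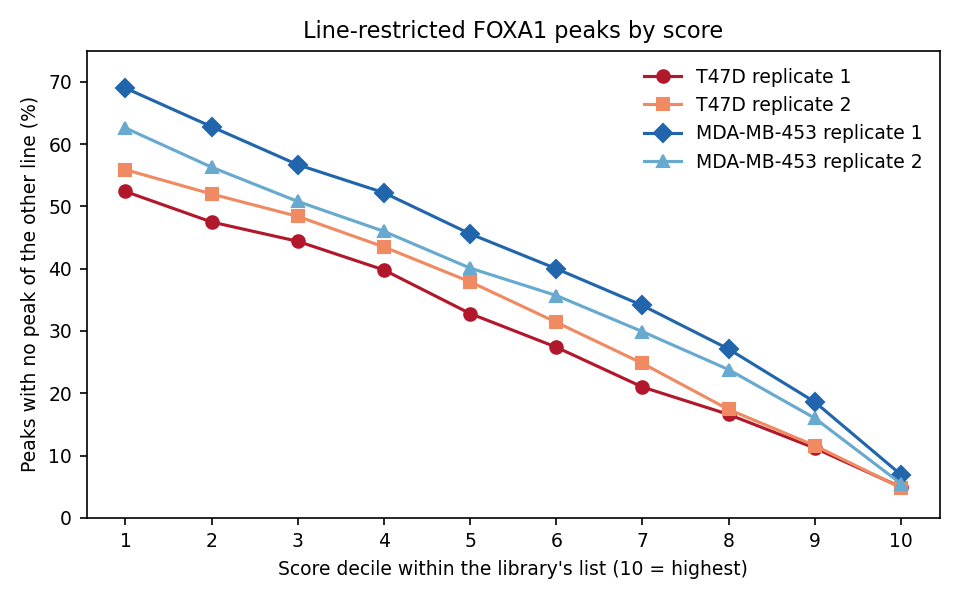
Peaks with no peak of the other line (percent, y axis) by score decile within each library's full list (x axis, 10 is the highest), with a line for each of the 4 FOXA1 libraries. All 4 lines fall from over 50% in the lowest decile to between 4.82% and 6.93% in the highest.

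Among regions bound in both lines the score order differed between lines. Over 71628 regions with a peak in all 4 libraries, Spearman's rho of the scores was 0.89 between the T47D replicates and 0.96 between the MDA-MB-453 replicates. Across lines it was 0.52 to 0.58 in the 4 pairs. The rho values are descriptions across regions, which are not independent, and peaks of the same library share its depth.

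Specific sites were narrower, lower in score and, on full lists, farther from gene ends than shared ones. Median width of peaks at shared sites was 463 and 465 bp in T47D and 568 and 513 bp in MDA-MB-453, and at specific sites 343 and 364 bp in T47D and 407 and 371 bp in MDA-MB-453. Specific peaks were narrower in 4 of 4 libraries, by 131 bp on average (exact sign-flip p = 0.125, two-sided). Median score percentile was 70.0, 69.8, 74.4 and 68.0 at shared sites and 43.1, 45.6, 50.4 and 40.0 at specific sites, in the same order of libraries. Specific peaks ranked lower in 4 of 4 libraries, with a mean difference of -25.8 percentiles (exact sign-flip p = 0.125). Both differences are descriptions, since wider peaks overlap more by construction and peaks of higher score were wider. Both replicates of a line were also read over the same sites, so their agreement is partly by construction. With centres within 250 bp in place of overlap, the mean differences were -115 bp and -23.7 percentiles.

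The share of peaks that came within 1 kb of a gene end was 13.6% and 13.7% at shared sites of T47D and 13.6% and 13.9% in MDA-MB-453. At specific sites it was 8.65% and 8.69% in T47D and 7.24% and 7.22% in MDA-MB-453. The difference was -5.00 ± 0.0513 percentage points (SD, n = 2) in T47D and -6.48 ± 0.232 (SD, n = 2) in MDA-MB-453, lower in 4 of 4 libraries (exact sign-flip p = 0.125). Both replicates of a line were read over the same sites, which need a peak of each, and shared sites are largely the same regions in both lines. The small SDs and the agreement of the libraries follow in part from this, and are not independent replication. The gene-end table gives no strand, so a gene end is either the start or the terminus. The median distance of a specific site to the nearest gene end was 13667 bp in T47D and 17463 bp in MDA-MB-453, against 11797 and 11792 bp for shared sites. In the 20000 highest scored peaks it was 11149 bp against 11747 bp in T47D and 18570 bp against 11786 bp in MDA-MB-453. A site inside a gene can lie far from its ends, and distance to gene bodies was not compared.

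The gene-end share separated the lines among the strongest peaks. In the 20000 highest scored peaks, shared sites had 12.4% and 12.3% near gene ends in T47D and 12.4% and 12.3% in MDA-MB-453. T47D-specific peaks had 12.5% in both replicates, so the difference was 0.129 and 0.150 points. MDA-MB-453-specific peaks had 5.34% and 5.27%, a difference of -7.06 and -7.02 points. Specific here means no peak among those kept of the other line, and weaker peaks of that line may lie there. On full lists only 4.82% to 6.93% of peaks in the highest decile met no peak of the other line. This list length was chosen after the data were seen, and the difference between the lines was not tested. As above, both replicates of a line were read over the same sites, so they agree in part by construction.

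At specific sites, TLE3 of the line that held the FOXA1 site was more frequent than TLE3 of the other line. TLE3 lists of T47D held 30170 and 61391 peaks and those of MDA-MB-453 held 42698 and 22706. The TLE3 lists did not enter the choice of sites. At T47D-specific FOXA1 sites, T47D TLE3 peaks lay over 9.26% and 21.8%, and MDA-MB-453 TLE3 peaks over 0.134% and 0.0334%. At MDA-MB-453-specific sites, MDA-MB-453 TLE3 peaks lay over 20.3% and 7.94%, and T47D TLE3 peaks over 1.04% and 4.89%. In each class both TLE3 libraries of the line that held the FOXA1 site exceeded both of the other line.

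Shared sites carried TLE3 more often than specific ones. The line's own TLE3 lay over 29.0% and 47.1% of shared T47D sites and 37.6% and 22.9% of shared MDA-MB-453 sites. Shared sites were also wider, at a median of 521 bp in T47D and 608 bp in MDA-MB-453, against 401 and 442 bp for specific ones. They ranked higher in score too. A wider site meets more peaks by overlap alone, and the part of width and score was not tested. The mean difference (specific minus shared) over the 4 TLE3 libraries was -19.3 percentage points, lower in 4 of 4 (exact sign-flip p = 0.125). In the 20000 highest scored FOXA1 peaks, a setting added after the data were seen, the gap was smaller. Specific sites in this setting may hold weaker FOXA1 peaks of the other line. TLE3 of the other line covered 25.7% and 10.2% of T47D-specific sites and 19.3% and 40.9% of MDA-MB-453-specific ones. There T47D TLE3 covered 57.2% and 78.3% of T47D-specific sites against 77.7% and 90.0% of shared ones. MDA-MB-453 TLE3 covered 91.8% and 70.1% of MDA-MB-453-specific sites against 86.6% and 71.3% of shared ones, so its first library was higher at specific sites and the mean difference over the 4 libraries was -7.08 points (exact sign-flip p = 0.375).

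SKBR3, the other luminal line of the series, with amplified ERBB2, bound FOXA1 at many of the sites that T47D and MDA-MB-453 shared. Its 2 FOXA1 libraries covered 65.3% and 67.7% of shared T47D sites and 65.5% and 67.9% of shared MDA-MB-453 sites. They covered 30.1% and 31.5% of T47D-specific sites and 19.1% and 22.3% of MDA-MB-453-specific sites. Both values for T47D-specific sites were above both for MDA-MB-453-specific sites. At equal list length they were 30.8% and 32.2% against 20.8% and 24.1%. The same 2 libraries gave all these values, so no test was made.

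**Figure D2:**
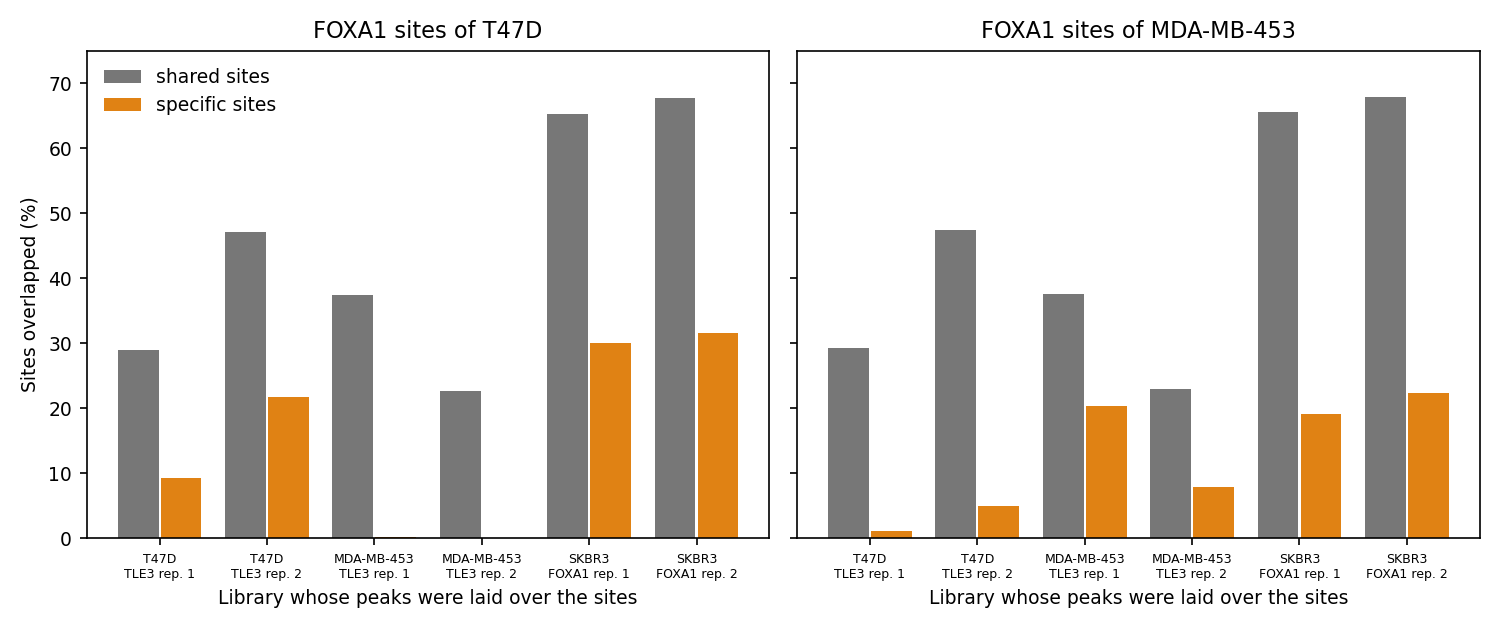
Share of FOXA1 sites (percent, y axis, full lists) overlapped by peaks of each TLE3 library and each SKBR3 FOXA1 library (x axis), with bars for shared and specific sites of T47D (left) and MDA-MB-453 (right). MDA-MB-453 TLE3 covers 0.134% or less of T47D-specific sites, and each SKBR3 library covers 65.3% or more of shared sites.

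The highest ranked specific sites all carried TLE3 of their own line. Of the 5 T47D-specific sites of highest mean score percentile, the first had NPBWR1, a neuropeptide receptor gene, as its nearest gene, 107012 bp away. The others lay inside SBF2, near SERPINA6, inside JPH2 and near TRPC6, and both T47D TLE3 libraries covered all 5. The SERPINA6 site spanned chr14:94334478-94335597, 11701 bp from the gene, apart from the promoter site printed above. Of the 5 MDA-MB-453-specific sites, those with CDH11 (a mesenchymal cadherin), LRRC7 and FRK (a Src-related kinase) as nearest gene lay 72804, 479283 and 54012 bp away. The others lay inside ACTR3C and EPAS1 (a hypoxia-induced factor). Both MDA-MB-453 TLE3 libraries covered all 5. The EPAS1 site was intragenic at chr2:46355144-46356268, 30992 bp from the nearer gene end.

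Chromosomes took different shares of the peaks in the 2 lines. At equal list length, chromosome X held 2.23% and 2.04% of T47D peaks and 3.78% and 3.74% of MDA-MB-453 peaks, a ratio of 0.569. Chromosome 2 held 6.73% and 6.56% against 8.78% and 8.96% (ratio 0.749), and chromosome 18 held 1.88% and 1.85% against 2.54% in both (0.734). In the other direction chromosome 11 held 5.65% and 5.77% against 4.68% in both, and chromosome 17 held 3.12% and 3.07% against 2.64% and 2.42%, both at a ratio of 1.22. The replicates of a line lay closer to each other than to the other line on all of these. Of the MDA-MB-453 sites on chromosome X, 55.7% were specific, and of the T47D sites there 20.0%, on full lists.

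**Figure D3:**
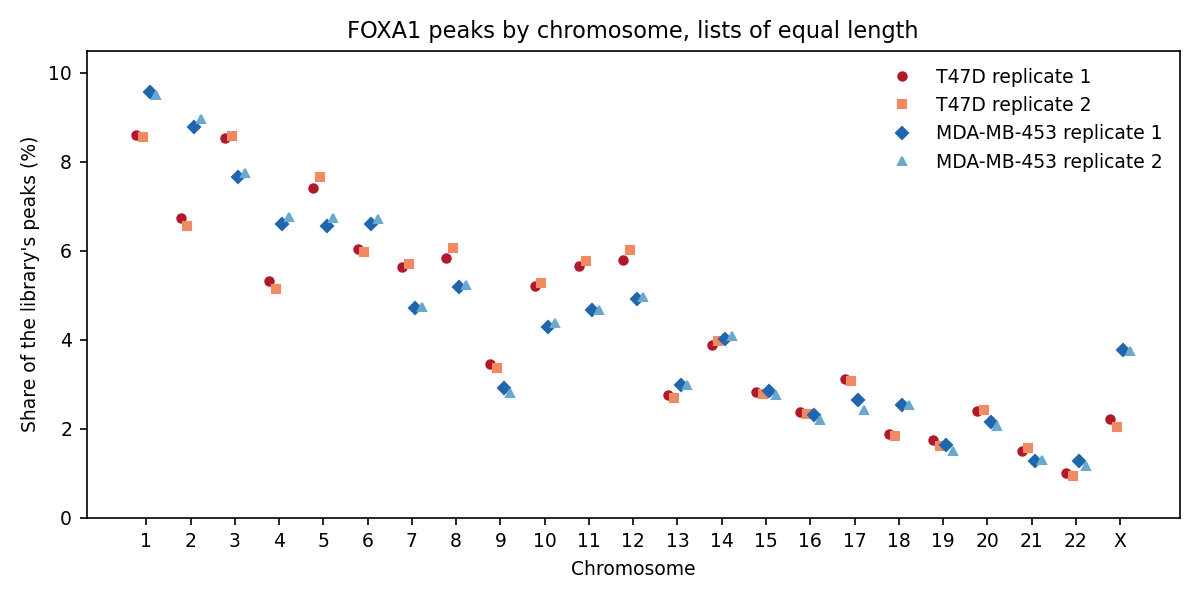
Share of each library's peaks (percent, y axis) on chromosomes 1 to 22 and X (x axis), with lists of equal length and a point for each of the 4 FOXA1 libraries. Chromosome X holds 2.04% to 2.23% of T47D peaks and 3.74% to 3.78% of MDA-MB-453 peaks.

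The genome was divided into 2881 bins of 1 Mb. The densest 1% (29 bins), picked for each class from its own sites, held 4.92% of T47D-specific sites and 3.16% of MDA-MB-453-specific sites, against 3.01% and 3.03% of shared sites. At equal list length the specific shares were 4.67% of 31431 sites and 3.30% of 37137. These shares are descriptions with no test, since the bins were chosen on the same counts and a smaller class has a larger share in its densest bins by counting alone. A bin was called when both libraries of a line exceeded both of the other and the means differed at least 2-fold at equal list length. By this rule 165 bins (5.73%) had more peaks in T47D and 242 (8.40%) in MDA-MB-453.

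The bin with most T47D-specific sites, 85, was chr12:116000001-117000000, which holds MED13L, a Mediator kinase module gene. It had 187 and 174 peaks in T47D and 73 and 71 in MDA-MB-453. The next, chr6:12000001-13000000, with PHACTR1 and EDN1, had 65 T47D-specific sites and 4 MDA-MB-453-specific ones. The bin with TRPS1, a GATA-type zinc finger repressor of luminal cells, had 62 and 12, and was not called since its 247 and 241 T47D peaks stood against 144 and 152. The bin with PRLR had 60 and 7. For MDA-MB-453 the densest bin, chr2:141000001-142000000, lay in LRP1B and had 67 specific sites against 1 of T47D. It had 113 and 120 peaks in MDA-MB-453 and 43 and 46 in T47D. The bins with GPC3 and with FGF13 followed with 64 and 60 specific sites, and both are on chromosome X.

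For genes, the peaks in a gene or within 50 kb of it were counted in lists of equal length, and a gene was called by the same rule as a bin. Of 19974 protein-coding genes, 2085 (10.4%) were called with more peaks in T47D and 1545 (7.74%) with more in MDA-MB-453. The calls followed the chromosomes. On chromosome X 40.3% of genes were called for MDA-MB-453, on chromosome 2 13.6%, and on chromosome 17 19.7% were called for T47D. An alternative added after the data were seen scaled each library's numbers to its share of peaks on the chromosome. It called 1812 genes for T47D and 1246 for MDA-MB-453, of which 1495 and 1021 were called both ways. A call is a description, since 2 libraries against 2 cannot pass a test, and genes with overlapping windows share peaks.

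Several genes of the estrogen and progesterone response, though not the larger part of either list, were called with more FOXA1 peaks in T47D. PRLR, the prolactin receptor (chr5:35048756-35230487), had 84 and 70 peaks in T47D and 21 and 18 in MDA-MB-453. The libraries did not overlap, and of the sites there 33 were T47D-specific and 1 MDA-MB-453-specific. GREB1, an estrogen-induced coregulator of the estrogen receptor (chr2:11482888-11642788), had 46 and 52 against 21 and 15, with 26 T47D-specific sites and 0 of MDA-MB-453. GREB1 stood against its chromosome, where T47D had the smaller share of peaks.

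PGR, the progesterone receptor (chr11:101029624-101129813), had 48 and 39 peaks in T47D and 16 and 18 in MDA-MB-453. Its 17 T47D-specific sites included an intragenic one at chr11:101033785-101034881, 4709 bp from a gene end, at a mean score percentile of 98.2 and under both T47D TLE3 libraries. ESR1, the estrogen receptor alpha gene (chr6:151656672-152129619), had 86 and 75 against 41 and 42. The libraries did not overlap, but the means differed by 1.94-fold, so ESR1 was not called. It was called with scaling within its chromosome and without T47D replicate 2. It had 35 T47D-specific and 10 MDA-MB-453-specific sites, the best of T47D at chr6:151642777-151644145, 13211 bp outside the gene at percentile 98.3 with both TLE3 libraries.

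TFF1, a secreted trefoil peptide and a standard estrogen target, did not share this pattern, with 10 and 11 peaks in T47D and 9 and 11 in MDA-MB-453. XBP1, an unfolded protein response factor induced by estrogen, had 28 and 24 against 28 and 23. In both genes the lines overlapped, and the small difference of TFF1 flipped with scaling.

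Of the 18 genes of the estrogen response list, 6 were called for T47D (GREB1, SIAH2, STC2, MYBL1, PGR and RARA) and 0 for MDA-MB-453. The median difference over the list was 4.75 peaks, against 0 over all protein-coding genes. All 18 had at least 1 T47D-specific site and 11 an MDA-MB-453-specific one. Such sites were near most genes, since 12357 of all 19974 protein-coding genes had a T47D-specific site and 14463 an MDA-MB-453-specific one. With scaling within chromosomes GREB1, MYBL1 and PGR were called, 3 of the 18. SIAH2 was also not called without T47D replicate 1. Of the 18 genes of the progesterone and prolactin response, 5 were called for T47D (PRLR, ID4, PGR, and the neighbours STAT5A and STAT5B, which share peaks) and 2 for MDA-MB-453. Those 2 were TNFSF11, the RANK ligand, and TSC22D3, a glucocorticoid-induced gene on chromosome X, which was not called with scaling or without T47D replicate 1. The T47D calls were the same with scaling.

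**Figure D4:**
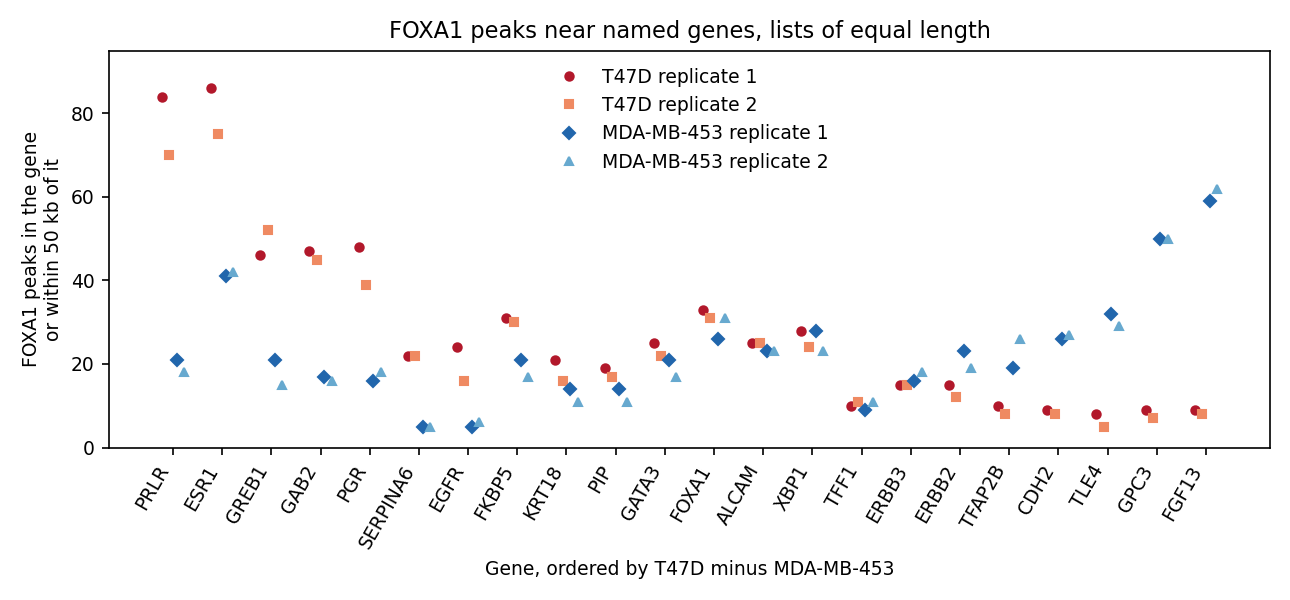
Number of FOXA1 peaks in a gene or within 50 kb of it (y axis, lists of equal length) for 22 genes named in the text (x axis, ordered by the difference T47D minus MDA-MB-453), with a point for each of the 4 libraries. PRLR and ESR1 are on the left with 70 to 86 peaks in T47D, and GPC3 and FGF13 on the right with 50 to 62 in MDA-MB-453.

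Genes of the androgen response and of apocrine cells were bound in both lines. This does not set them apart, since only 453 of all 19974 protein-coding genes had no peak in any library. Of the 20 genes of the list 0 were called for T47D, and the median difference over the list was 0.250 peaks. FKBP5, an androgen and glucocorticoid target, had 31 and 30 peaks in T47D against 21 and 17. PIP, a secreted apocrine protein, had 19 and 17 against 14 and 11, and ALCAM, an adhesion molecule, 25 and 25 against 23 and 23. All 3 had their higher mean in T47D, except that the direction of ALCAM flipped with scaling within its chromosome, and none was called.

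Luminal identity genes were bound in both lines. GATA3, the luminal GATA factor, had 25 and 22 peaks in T47D and 21 and 17 in MDA-MB-453, with 1 specific site in each line. FOXA1 itself had 33 and 31 against 26 and 31, and KRT18, a luminal keratin, 21 and 16 against 14 and 11. KRT8 had 26 and 22 against 19 and 17, KRT19 had 22 and 21 against 13 and 11, and EPCAM had 7 and 5 against 8 and 7. All 6 luminal markers had peaks in all 4 libraries. Only 453 of all 19974 protein-coding genes had no peak in any library, so the presence of peaks alone says little about these markers. Of the 22 genes of the list, 17 had the higher mean in T47D and 5 in MDA-MB-453, and the median difference was 4.25 peaks. Of all 19974 protein-coding genes, 9750 had the higher mean in T47D, 8493 in MDA-MB-453 and 1731 had equal means. None of the 22 was called for T47D and 1 for MDA-MB-453. That gene was TFAP2B, an AP-2 factor of chromosome 6, with 10 and 8 against 19 and 26 peaks and 14 MDA-MB-453-specific sites. Its best site, at chr6:50846707-50848000, lay at the end of the gene.

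Several genes that mark basal breast cells were called for T47D. Of the 18 genes 6 were called for T47D (FOXC1, EGFR, VIM, ACTA2, KRT14 and KRT17) and 0 for MDA-MB-453, with a median difference of 3.50 peaks. EGFR, a receptor tyrosine kinase, had 24 and 16 peaks against 5 and 6, and VIM, an intermediate filament gene of mesenchymal cells, had 12 and 10 against 2 and 1. KRT14 and KRT17 are neighbours on chromosome 17, where 19.7% of genes were called for T47D. KRT14 and ACTA2 were not called with scaling, which left 4 of the 18. KRT5, a basal keratin, had 1 peak in each T47D library and 0 in each MDA-MB-453 library at equal length.

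In the ERBB pathway 5 of 18 genes were called for T47D and 2 for MDA-MB-453. The 5 were the ligand genes NRG2, NRG4 and HBEGF, the receptor gene EGFR and the adaptor gene GAB2. GAB2 had 47 and 45 peaks against 17 and 16, with 22 T47D-specific sites and 0 of MDA-MB-453. The other 2 were the exchange factor gene SOS1 and the ligand gene BTC, and neither was called with scaling. SOS1 was also not called without T47D replicate 2 or without MDA-MB-453 replicate 1, nor BTC without T47D replicate 1. ERBB2 had 15 and 12 peaks in T47D and 23 and 19 in MDA-MB-453, without overlap but under 2-fold. ERBB3 had 15 and 15 against 16 and 18. ERBB4 had 133 and 111 against 112 and 121, with 53 shared and 16 specific sites in T47D and 54 shared and 31 specific in MDA-MB-453.

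Among FOXA1 partners and cofactors, 0 of 18 genes were called for T47D, and TLE4 was called for MDA-MB-453. TLE4, a Groucho corepressor like TLE3, had 8 and 5 peaks in T47D and 32 and 29 in MDA-MB-453, with 0 and 20 specific sites. It is on chromosome 9, where 4.11% of genes were called for MDA-MB-453 and 20.3% for T47D. TLE3 itself had 15 and 16 against 14 and 11. In the list of epithelial-mesenchymal transition and TGF-beta, 4 of 19 genes were called for T47D (TWIST1, TGFBR1 and VIM among them) and 1 for MDA-MB-453, with a median difference of -0.500 peaks. That 1 was CDH2, N-cadherin, with 9 and 8 peaks against 26 and 27 and 16 MDA-MB-453-specific sites. Scaling left TGFBR1, VIM and CDH2. In lipid metabolism the single called gene of 20 was FABP7, a fatty acid binding protein, with 7 and 7 peaks against 23 and 24.

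Control lists were called too. Of 18 housekeeping genes 1 was called for T47D (ACTB) and 4 for MDA-MB-453 (TBP, GUSB, PGK1 and HPRT1). PGK1 and HPRT1 are on chromosome X, and with scaling GUSB and PGK1 were called and the other 3 were not. ACTB was also not called without T47D replicate 1 or without MDA-MB-453 replicate 2, nor TBP without T47D replicate 2 or without MDA-MB-453 replicate 2. Of 20 genes of other cell types 2 were called in each direction. The share called for T47D was above the 10.4% of all protein-coding genes in the estrogen, basal, progesterone, ERBB and epithelial-mesenchymal lists and below it in the other 6. With scaling the epithelial-mesenchymal list had 2 of 19 called for T47D, near the 1812 of 19974 over all genes. The lists are not separate, since PGR, EGFR and VIM were each counted in more than a single list. The share called for MDA-MB-453 was above the 7.74% of all genes in the housekeeping list, in the progesterone, ERBB and partner lists and in the list of other cell types. Median differences of the remaining lists were 3.00 peaks for progesterone and for ERBB, 1.50 for partners, -0.250 for lipid metabolism, -0.750 for housekeeping and 0 for other cell types. No list was tested against the rest of the genes.

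**Figure D5:**
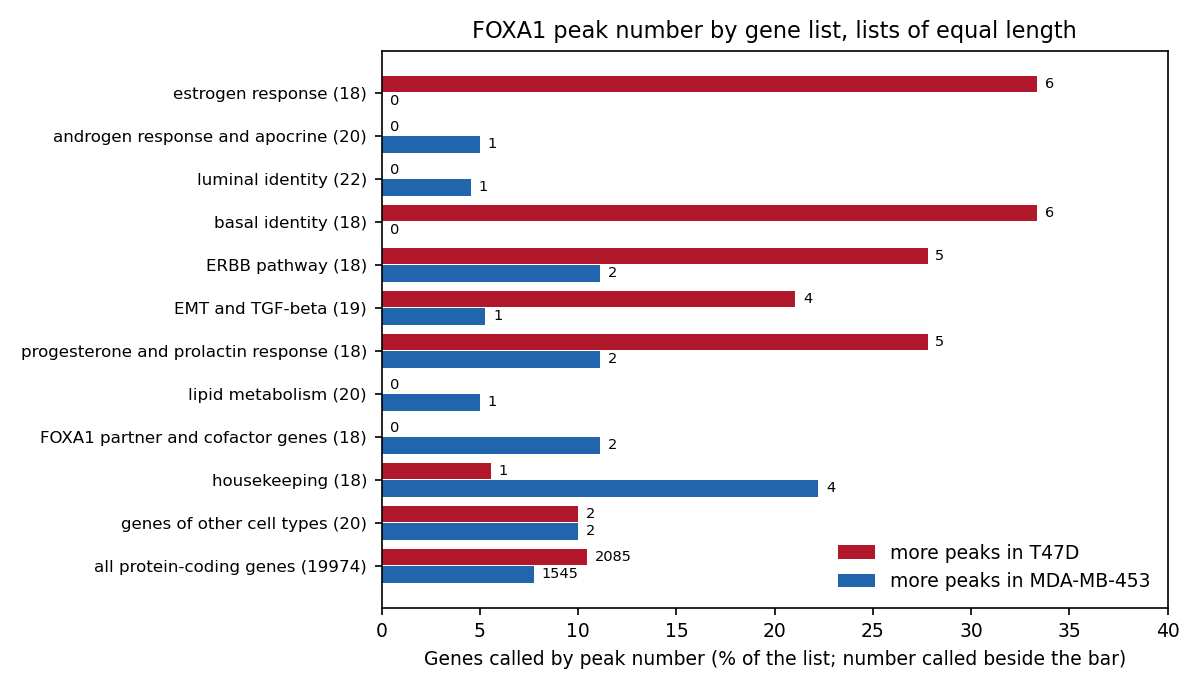
Share of each gene list called with more FOXA1 peaks in T47D or in MDA-MB-453 (percent, x axis, lists of equal length; the number called stands beside each bar and the number of genes in parentheses), by list (y axis). The estrogen and basal lists each have 6 of 18 called for T47D and 0 for MDA-MB-453, against 10.4% and 7.74% of all protein-coding genes.

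The largest differences in peak number were mostly at genes outside the lists, which hold only 193 of the 19974 protein-coding genes. A ranking by number favours long genes, whose windows hold more peaks. MAGI2 spans 1437 kb and GPC6 1191 kb, though PRLR spans 182 kb, against a median of 20.9 kb over genes called for T47D. For T47D the largest differences were at MED13L, with 117 and 111 peaks against 25 and 28, followed by GPC6, MAGI2, PRLR, PRKG1, PHACTR1, WWOX, TENM3, BMPER and SEMA3A. PRKG1 was not called with scaling. MED13L, which spans 319 kb, had 62 T47D-specific sites and 0 of MDA-MB-453. BMPER, a secreted regulator of bone morphogenetic proteins, had 59 and 59 against 18 and 15, and SEMA3A, a secreted guidance cue, 55 and 57 against 13 and 15. Both had 0 MDA-MB-453-specific sites, and 30 and 23 T47D-specific ones.

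For MDA-MB-453 the largest differences included those at LRP1B, AGBL4, NRXN3, LINGO2, CCSER1, FGF13, NBEA, ARHGAP6 and IL1RAPL2. LRP1B, a lipoprotein receptor gene that spans 1900 kb, had 67 and 65 peaks in T47D and 186 and 197 in MDA-MB-453, with 4 and 118 specific sites. FGF13, an intracellular FGF-like factor, had 9 and 8 against 59 and 62, with 0 and 46 specific sites, and GPC3, a glypican of the densest X bins, had 9 and 7 against 50 and 50. FGF13, GPC3, ARHGAP6 and IL1RAPL2 are on chromosome X, and all 4 were called with scaling too. CCSER1, on chromosome 4, was not called with scaling or without T47D replicate 1. Not every X-linked gene had more peaks in MDA-MB-453. CTPS2, a CTP synthase gene, had 33 and 31 peaks in T47D and 9 and 10 in MDA-MB-453, with 15 T47D-specific sites.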

How the data were processed

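FOXA1 ChIP-seq peak lists of T47D and MDA-MB-453 (2 replicates each) were analysed, with the TLE3 lists of both lines and the FOXA1 lists of SKBR3 laid over the sites. Inputs and the TLE3 lists of SKBR3 were not used here. The submitters' processing notes name hg38, Trim Galore, BWA 0.7.5a, SAMtools and MACS2, without the settings of the caller. Peaks were listed per replicate. The deposited score of each peak is the authors' value, has no named quantity and a lowest value of 2.01 to 2.04, and served only to rank peaks within a list. Of 637355 FOXA1 peaks, 4 were dropped because they lay off chromosomes 1 to 22 and X.

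Genes came from a RefSeq table (GRCh38.p14, 19974 protein-coding), promoters from the RefSeq promoter table, all 34961 matched by symbol. Motifs were searched in promoters alone. The members and the 11 gene lists (193 genes) were chosen with earlier results of these data known. Named were the 10 genes with the largest difference in each direction among called genes with separate windows, up to 2 called members per list and direction, a set of genes whatever their values, the genes nearest the top 5 sites of a class and those in the densest bins. Other called list members, KRT8, KRT19, EPCAM and TLE3 were named after their values were seen. Python 3.11.15, numpy 2.4.6, pandas 2.3.3, scipy 1.17.1 and matplotlib 3.10.9 were used, and the interval code was tested on simulated data. Alternatives were other list lengths, overlap rules, windows, bin sizes, a replicate block and each library left out. Results for some genes that the rule names are not reported here.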

Additional observations from a re-analysis of the deposited data

Results flagged for a closer look

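With each list reduced to its 20000 strongest peaks, a setting chosen after the data were seen, specific and shared FOXA1 sites differed in gene-end share in opposite directions in the 2 lines. Both T47D libraries had a slightly higher share at specific sites, by 0.140 percentage points on average. Both MDA-MB-453 libraries had a lower share, with a mean difference of -7.04 points. The difference between the lines was not tested. Both libraries of a line were read over the same sites, so they agree in part by construction.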

How the results depend on the processing

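Peak width, the gene-end, width and score differences between specific and shared sites and the TLE3 difference kept their direction, as means over libraries, under all alternatives run, but none of their tests can pass 0.05 in this design. The peak number also kept its direction where it could be run, since lists of fixed length give no difference. The share of peaks without a peak of the other line (-7.68 points, T47D minus MDA-MB-453) changed sign to 0.797 at equal length and 1.35 in 50000 peaks, and ranged from -15.1 to 4.64 with each library left out. Leaving out a library of a line raises the other line's share by construction. The gene-end share of all peaks (difference 0.587 points) ranged from -0.125 to 1.30 with each library left out.

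The SKBR3 FOXA1 difference was negative throughout. It was smallest in size in the 20000 highest scored peaks, at -28.3 and -25.5 points for MDA-MB-453 sites. For T47D sites the difference was then -11.6 and -11.1 points. For T47D sites it was -35.8 points in the full lists, -36.5 at equal length, -23.9 in 50000 peaks, -31.6 in the upper 50%, -31.3 for centres within 250 bp, -33.0 for sites from either replicate, and -41.0 to -31.9 with each library left out. For MDA-MB-453 sites it was -46.0, with -40.5 in 50000 peaks, -44.9 in the upper 50%, -42.2 for centres, -38.2 for either replicate and -46.8 to -39.7 with each library left out.

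Site numbers follow the list length and the replicate rule by construction. Shared T47D sites numbered 24784 in 50000 peaks, 37974 in the upper 50% and 115786 from either replicate. T47D-specific sites numbered 14683, 16818 and 64761 in the same settings and 29429 to 48918 with each library left out. MDA-MB-453-specific sites numbered 16830, 27284 and 86969, and 52017 to 77635 with each library left out. Of T47D-specific sites the densest 1% of bins held 5.39% in 50000 peaks, 5.26% in the upper 50%, 3.72% from either replicate, 3.12% with 5 Mb bins and 3.79% to 4.71% with each library left out. Of MDA-MB-453-specific sites they held 3.87%, 3.35%, 2.76% and 2.64%, and 2.79% to 3.06% with each library left out.

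Genes called numbered 1285 for T47D on full lists and 2785 for MDA-MB-453 in the upper 50%, where the MDA-MB-453 lists are the longer. List genes called for T47D numbered 41 in 50000 peaks and 15 on full lists, against 26. Differences in mean peak number changed sign for SOS1 (1.50) and ERBB3 (4.50) in 50000 peaks, and in the upper 50% for ERBB4 (-5.00), ALCAM (-2.00), ACTB (-0.500) and ERBB3 (2). On full lists they did so for ERBB4 (-20.5), ALCAM (-3.50), FOXA1 (-0.500), TFF1 (-1) and XBP1 (-1.50). Within 100 kb ALCAM (-0.500) and XBP1 (-2.50), within 10 kb ERBB3 (0.5), and with scaling within chromosomes ALCAM (-0.519) and TFF1 (-1.37) changed sign. With each library left out ERBB4 ranged from -6.00 to 16.5, XBP1 from -2.00 to 3.00 and TFF1 from -0.500 to 1.50. The cause was not tested for any of these.

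The replicate numbers mark 2 pairs that share only a number. The deviations of same-numbered libraries correlated at 0.069 over 19974 genes. With the number as a replicate block the differences were unchanged, at -0.20 (log2 peak number), -27.5 bp, 0.587 and -7.68 points, each at exact p = 0.5, the smallest that 2 pairs allow. Depth is unknown, so weak peaks near the threshold of a list may be missed in either line, and a specific site is one without a listed peak.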
